A study of Mus musculus with 26 samples.

Results

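Ribosome footprints, the pieces of mRNA that translating ribosomes shield from nuclease, were compared between the striatum of G2019S LRRK2 transgenic mice (GS LRRK2 TG) and that of non-transgenic (non-TG) controls. All 8576 transcripts of the table that holds this comparison were taken, out of 26713 entries over the 3 tables of the series. The footprint change of a transcript was the log2 ratio of its mean footprint level in GS LRRK2 TG to its mean level in control. The comparison covers 5 of the 26 samples, 3 from non-TG controls and 2 from GS LRRK2 TG mice. Only group means are deposited. Mice were on the C57BL/6 strain and 3 months old, and the controls were labelled wild-type. LRRK2 was expressed from a Tet-off construct under CaMKII-tTA, so that transgene expression was limited to cells in which that driver is active and was held off by doxycycline in the chow until weaning. The mouse Lrrk2 gene was intact in each group. Each sample pooled caudate putamen from 3 mice of mixed sex. Samples of a kinase-dead form, G2019S/D1994A LRRK2 TG (GS/DA LRRK2 TG, 2 footprint samples of the same strain, age and driver), enter because their libraries were found in the control mean. Genes described below outside the rule given with the methods were chosen for their role after their values were seen.

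LRRK2 is a large protein with a kinase and a GTPase domain, and G2019S is a Parkinson disease substitution that raises its kinase activity. Most neurons of the striatum are medium spiny neurons, GABAergic cells that carry dopamine receptors, receive input from cortex and project to the pallidum and the midbrain. A footprint level follows both the amount of an mRNA and the number of ribosomes on each copy of it.

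Most transcripts had similar footprint levels in GS LRRK2 TG and control striatum, and Lrrk2 was the highest of all changes against the deposited control mean. Without 1 GS LRRK2 TG library (GS A) Lrrk2 stood at 0.40, and the highest change was 1.58. Immediate early genes had a median change of -0.27 and medium spiny neuron genes of -0.11, and without a single GS LRRK2 TG library (GS A) these were -0.04 and 0.08. Within the library sets A and B described below, each with 1 GS LRRK2 TG library, immediate early genes were at -0.42 and -0.33. Medium spiny neuron genes were at -0.30 and -0.09 there. Astrocyte genes lay higher by a small amount whichever library was left out. The median of oligodendrocyte genes was 0.19 and that of microglia genes 0.15, but they were 0.06 without GS B and -0.11 without GS A. Il33, Apod and Lpl passed a log2 change of 0.3 with both GS LRRK2 TG libraries above all non-TG libraries. Ribosomal, mitochondrial, proteasomal and synaptic vesicle genes had medians close to 0 against the deposited control mean. Against the 3 non-TG libraries, small and large ribosomal subunit proteins were at -0.10 and -0.08. Respiratory complex I subunits were at -0.14 without GS A and 0.10 without GS B. With limma on libraries recovered from the means, no transcript passed an adjusted p of 0.05 for genotype alone. Lrrk2, Ddit4l and Gm1337 passed once the set of libraries, found from these same values, was a term.

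Each deposited mean is an average of whole reads divided by 1 size factor per library, and a search over whole reads recovered the single libraries. For 99.8% of the GS LRRK2 TG means exactly 1 pair of whole reads matched within rounding. The control mean of the table was then found to average 5 libraries, not 3. These were the 2 controls and the 2 kinase-dead libraries behind the means of the other transgenic table, and 1 further library. This combination gave whole reads for 100% of the 8371 transcripts with all other libraries known, where a random value would have given them for 0.000519%. Of 11 combinations tried, it had a coherence of 0.996 (a score of 1 means that all transcripts share the same whole-read step), and the next best had 0.26. The further library was taken as the third non-TG control because the column is named control and the labels give 3 such samples. No expression value was used for this. All 7 libraries were resolved for 8567 transcripts. The other 9, with copies of Actb, Gapdh, Gm5803, Hmgb1, Tuba3a and Ubb among them, lack single values for the non-TG and GS LRRK2 TG libraries.

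In the recovered libraries, 18352982 reads lay on these transcripts in non-TG A, 11341185 in non-TG B and 8948304 in non-TG C. GS A held 7387688 reads and GS B 8419734, and the GS/DA LRRK2 TG libraries held 21240069 and 9063727. The letters only name libraries and are not the replicate numbers of the labels. The libraries fell into a pair of sets that cross the genotypes. The first axis of variation, with 61% of the variance over 6918 transcripts with a mean of at least 250, put non-TG A, GS A and GS/DA A on 1 side (library set A) and non-TG B and C, GS B and GS/DA B on the other (library set B). Set A exceeded set B in all libraries for 1706 transcripts, and set B exceeded set A for 1663. A few transcripts were almost absent from 1 set, and 5 differed at least 5-fold between all libraries of the sets. Gm6251 had 486, 480 and 458.8 normalized reads in the 3 libraries of set A and 0 in all 4 of set B. Gm4987 had 0, 1.51 and 1.58 in set A and 308 to 325 in set B. Ftl2, a ferritin light chain copy, had 71.4 to 76.8 in set A and 596 to 766 in set B. What sets the libraries apart was not tested. Results are therefore given against the deposited control mean, against the 3 non-TG libraries alone, and within each set (GS A over non-TG A, and GS B over non-TG B and C).

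Against the deposited control mean, 145 of 8576 transcripts (1.69%) were higher by a log2 change of at least 0.3 and 145 (1.69%) were lower by as much. The median change was 0.00, the SD over transcripts 0.15, and changes ran from -5.75 for Gh to 1.04 for Lrrk2. A change of 0.5 or more was reached by 12 transcripts upward and 17 downward, and a change of 1 or more by 1 and 3. Among the 4586 transcripts with both means of at least 500, 21 were higher and 41 lower, and none of the 131 transcripts with a control mean of at least 10000 passed 0.3. The pair of GS LRRK2 TG libraries, from different library sets, had an SD of 0.38 for their log2 ratio over 8565 transcripts. That is a ratio of single libraries and the change is a ratio of means, so their SDs are unlike measures. The same SD was 0.29 between non-TG A and B, 0.29 between A and C, and 0.20 between B and C. A single library moved the counts: without GS A 362 were higher and 443 lower, and without GS B 778 and 949. Of the 142 higher transcripts with single libraries and the 145 lower ones, 54 and 56 were still past 0.3 without GS A, 105 and 124 without GS B, and 17 and 35 in both cases.

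Against the 3 non-TG libraries, 271 of 8567 transcripts were higher by at least 0.3 (3.16%) and 293 were lower (3.42%). Of these, 113 and 139 were also past 0.3 against the deposited control mean. Without non-TG A the counts against the other 2 were 603 and 547. Both GS LRRK2 TG libraries lay above all 3 non-TG libraries for 673 transcripts (7.86%) and below all 3 for 647 (7.55%). Of the 145 transcripts higher against the deposited mean, 60 had such libraries without overlap, as did 87 of the 145 lower ones. The same libraries enter the deposited change, so the choice itself raises these shares, and they are no separate support. Within both library sets, 56 transcripts were higher by at least 0.3 (0.654%) and 72 lower (0.84%), and 34 and 60 of these also passed against the deposited mean.

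The test fitted limma to 2 GS LRRK2 TG and 3 non-TG libraries on log2(normalized reads + 10) over 8567 transcripts. It made 0 calls (0%) at an adjusted p under 0.05, and 243 transcripts had an unadjusted p under 0.05, 108 higher and 135 lower. Adding the library set as a term, chosen after seeing the data, gave 3 calls (0.035%) and 789 transcripts at an unadjusted p under 0.05. The sets were found from these same values, so p-values with the set as a term are not exact error rates. Lrrk2 rose in this fit, and Ddit4l and Gm1337 fell. Leaving out 1 library at a time gave 0 calls without non-TG A, B or C, 2 without GS A (Alcam and Lrrk2) and 5 without GS B (D4Wsu53e, Fosl2, Lrrk2, Nr4a3 and Zbtb16). With the set as a term, leaving out GS A or non-TG A leaves GS B against non-TG B and C (4 and 3 calls, none of an immediate early gene). Leaving out GS B leaves GS A against non-TG A (33 calls). These compare a lone GS LRRK2 TG library with controls and do not show how stable the calls are. Without non-TG B there were 35 calls, 29 of them lower, with Egr1, Egr2, Egr3, Egr4, Fosb, Nr4a1, Nr4a3 and Gpr6 among them. Without non-TG C there were 11, and Nr4a1 was the only immediate early gene.

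**Figure D1:**
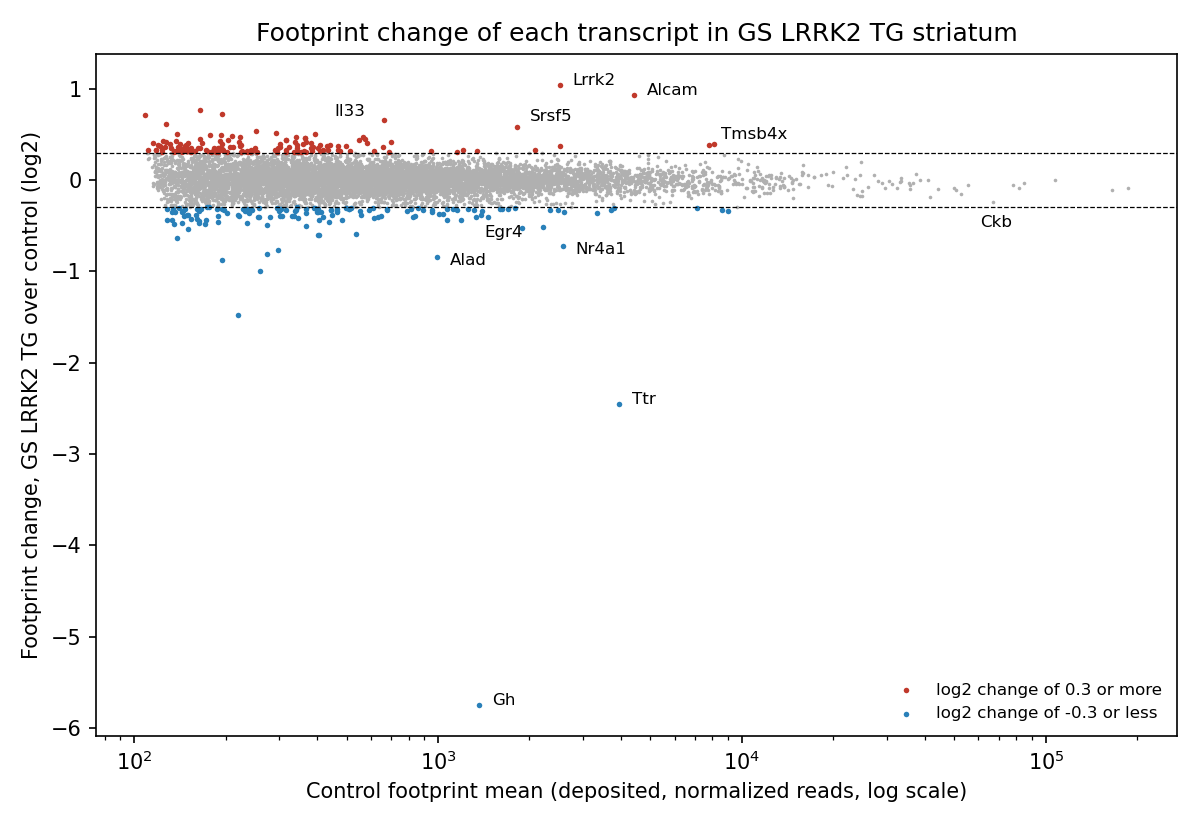
Footprint change of each of 8576 transcripts (log2 of the GS LRRK2 TG mean over the deposited control mean, vertical axis) against its control footprint mean in normalized reads (horizontal axis, log scale). Each point is a transcript, and the dashed lines mark changes of 0.3 and -0.3, past which 145 points lie above and 145 below, most of them at low control means.

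Lrrk2, on chromosome 15 (91503606 to 91646551 of mm9, plus strand), was the check on the genotype labels. Its footprints were 1145, 969.9 and 962 in non-TG A, B and C and 7052 and 3320.5 in GS A and B. In GS/DA LRRK2 TG they were 5763 and 3779. All transgenic libraries lay above all 3 non-TG libraries, and in each transgenic genotype the library of set A was the higher one. Since the deposited control mean holds the GS/DA LRRK2 TG libraries, the deposited change of 1.04 was smaller than the change of 2.34 against the 3 non-TG libraries. It was 2.62 within set A and 1.78 within set B, and it was 0.40 against the deposited mean without GS A. In limma the difference was 2.23 (SE 0.284, 95% interval 1.57 to 2.90, unadjusted p = 8.62e-05), with an adjusted p of 0.738. With the library set as a term it was 2.13 (SE 0.141, adjusted p = 3e-05). These are reads placed on mouse Lrrk2 with at most a single mismatch, so the transgene and the mouse gene cannot be told apart.

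The dissection carried the medium spiny neuron markers. Of 32 symbols listed for these neurons 28 had a transcript, among them Ppp1r1b (DARPP-32, the protein phosphatase inhibitor of these cells), Drd1a, Drd2, Adora2a, Rgs9, Penk, Tac1 and Pde10a. Ppp1r1b, with a control mean of 32311, had the most reads of the list. None of the 28 was higher by 0.3, 2 were lower (beside 1.69% of all transcripts), and 24 lay below 0, with a median of -0.11 beside 0.00 over all transcripts. Against the 3 non-TG libraries the median was -0.22, and it was -0.30 within set A and -0.09 within set B. Without GS A it was 0.08 against the deposited mean, and without GS B it was -0.34. The summed level of the list was 218852, 249656 and 250805 in non-TG A, B and C and 177110 and 236845 in GS A and B. In bulk tissue, fewer cells of a type and less RNA per cell cannot be told apart.

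Gpr6, a receptor of the striatopallidal neurons, had footprints of 1351, 1689.6 and 1667 in non-TG A, B and C and 866 and 1339 in GS A and B. Both GS LRRK2 TG libraries were below all 3 non-TG libraries, with a deposited change of -0.41 and a change of -0.51 against the 3 non-TG libraries. It was lower within each set, at -0.64 in set A and -0.33 in set B. Without GS A the deposited change of Gpr6 was -0.13, and without GS B it was -0.76. Arpp21, Arpp19, Rasd2 and Tmem158 of the same list had libraries below all non-TG libraries as well. In all 6 of 28 members did, beside 7.55% of all transcripts, and Pdyn alone lay above.

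The dopamine receptor genes differed in degree. Drd1a, the receptor of the striatonigral neurons, had 2540.5, 3270 and 3119 in non-TG A, B and C and 1655 and 2708 in GS A and B, a change of -0.26. GS A was the lowest of these 5 libraries, and GS B lay among the controls, so that the change was 0.05 without GS A. Drd2, the receptor of the striatopallidal neurons, had a change of -0.02, and Adora2a, the adenosine receptor found beside it, -0.16. Chrm4, a muscarinic receptor of striatonigral neurons, had -0.24, and Bcl11b, a transcription factor needed for their differentiation, -0.19. Pde10a and Pde1b, which break down cyclic nucleotides, had -0.06 and -0.09. The libraries of these 7 genes overlapped between the groups. Without GS A, Drd2, Adora2a, Chrm4, Bcl11b, Pde10a and Pde1b stood at 0.31, 0.19, 0.02, 0.00, 0.13 and 0.08.

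The striatal neuropeptides did not share 1 direction. Penk, the enkephalin precursor of striatopallidal neurons, had 24670, 29773 and 30520.1 in non-TG A, B and C and 16568 and 27036 in GS A and B, with a change of -0.17 (-0.38 against the 3 non-TG libraries, and 0.14 against the deposited mean without GS A). GS A was the lowest of these 5 libraries and GS B lay within the controls. Tac1, the substance P precursor, had 0.15, and Pdyn, the dynorphin precursor, 0.06 with both GS LRRK2 TG libraries above the controls. Of 17 measured peptide and granin genes 12 lay above 0 (median 0.07, and 0.11 against the 3 non-TG libraries), and none passed 0.3. Libraries of Npy, Scg3, Chga, Cpe and Pdyn lay above all non-TG libraries, and none of the 17 below, beside 7.86% and 7.55% of all transcripts. Oprk1, the receptor on which dynorphin acts, had 354, 323 and 313 in non-TG A, B and C and 439 and 506 in GS A and B, a change of 0.39, with both GS LRRK2 TG libraries above the controls. Without GS B the median of the peptide list was -0.01.

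Immediate early genes, which neurons transcribe within minutes of activity, had the lowest median of the 39 gene lists. All 22 measured members lay below 0, and 10 of them were lower by at least 0.3, beside 1.69% of all transcripts. Their median was -0.27, -0.42 against the 3 non-TG libraries, -0.42 within set A and -0.33 within set B. Without GS A it was -0.04 against the deposited mean and without GS B -0.48. Ier2, Btg2, Bdnf, Klf2 and Klf4 were not analysed here. Libraries of 20 of the 22 genes overlapped between the groups, and Sik1 and Homer1 were below all controls, a share close to the 7.55% of all transcripts.

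Nr4a1, an orphan nuclear receptor induced by activity, had 2226, 3216 and 4644 in non-TG A, B and C and 799.5 and 2322 in GS A and B. GS A was below every control, GS B lay just above non-TG A, and non-TG C was far above the rest. Its change was -0.72, -1.11 against the 3 non-TG libraries, -1.48 within set A and -0.76 within set B, and without GS A the deposited change was -0.15. In limma with the library set as a term it was at -1.05 (SE 0.161, adjusted p = 0.0575). Egr4, a zinc finger transcription factor, had 2024, 2581 and 3783 in non-TG A, B and C and 834 and 2269.6 in GS A and B and a change of -0.52, which was 0.03 without GS A. Egr1, of the same family and with the most reads of the list, had 7124, 10946 and 13658 in non-TG A, B and C and 3099.7 and 10596 in GS A and B and a change of -0.32 (-0.63 against the 3 non-TG libraries, and 0.31 against the deposited mean without GS A).

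For each of these genes GS A was the lowest library and GS B fell among the controls. The same held, more steeply, for Nr4a3, at 789, 925 and 1532 in non-TG A, B and C and 114 and 1139 in GS A and B, and for Fosl2, a Fos family member, at 563, 737 and 1163 in non-TG A, B and C and 74.2 and 880.4 in GS A and B. Their changes were -0.40 and -0.41, but 0.46 and 0.47 without GS A. Egr2 (-0.46), Fosb (-0.39), the ERK phosphatase gene Dusp6 (-0.43) and Arc (-0.32), whose protein acts at synapses, were further members past -0.3. Without GS A, Egr2 was at 0.15, Fosb at 0.14 and Dusp6 at -0.13. Nr4a2 (-0.77) was past it against the deposited mean, to which GS/DA A and B gave 559 and 353, and stood at -0.14 against the 3 non-TG libraries. The deposited change of Nr4a2, which is also on the cortical excitatory neuron list, was -1.98 without GS A and -0.12 without GS B. Arc was higher in GS A (1355) than in non-TG A (1218) and lower in GS B (1367) than in non-TG B and C (1980.4 and 2492). Fos itself had -0.16, Junb -0.19 and Npas4 -0.04, and without GS A Junb was at -0.07 and Npas4 at -0.44. In GS/DA LRRK2 TG, Nr4a1 had 1246 and 1537, and Egr4 1055 and 1648.

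Nab2 and Slc25a25 were among the 15 lowest changes with both means of at least 500. Nab2, a corepressor of Egr proteins, had 781, 949 and 982 in non-TG A, B and C and 556 and 724 in GS A and B, a change of -0.40 with libraries below all controls. Slc25a25, a mitochondrial ATP-magnesium carrier, had 1079, 1184 and 1334 in non-TG A, B and C and 674 and 925 in GS A and B, a change of -0.38, also below all controls. Without GS A the changes of Nab2 and Slc25a25 were -0.22 and -0.17.

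**Figure D2:**
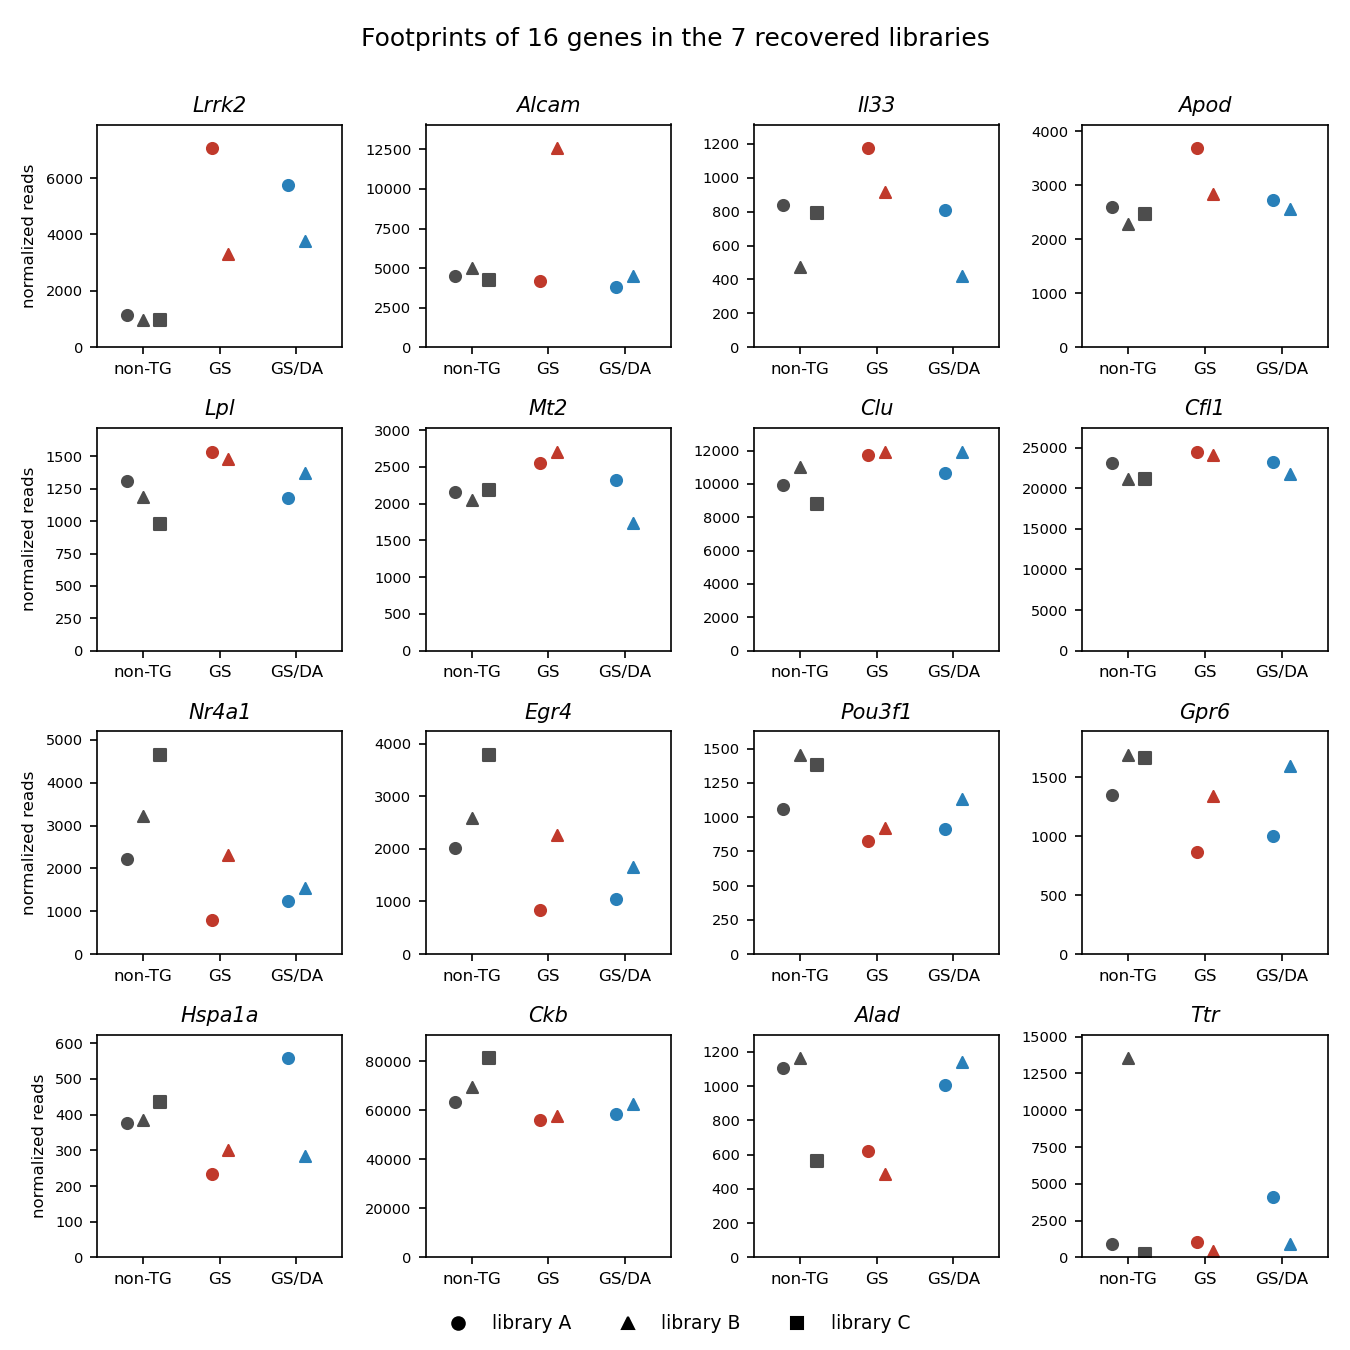
Normalized footprint reads of 16 genes in the 7 recovered libraries, 3 of non-TG control (grey), 2 of GS LRRK2 TG (red) and 2 of GS/DA LRRK2 TG (blue); each point is a library, and circles, triangles and squares mark libraries A, B and C. Pou3f1 and Gpr6 in both red points lie below all grey points, Nr4a1 and Egr4 are lowest in GS A, Alcam is high in GS B alone, and Ttr is highest in non-TG B, followed by GS/DA A.

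Oligodendrocyte and myelin genes had the highest median of the lists after the Y-linked genes. Of 25 measured genes 22 lay above 0 and 2 passed 0.3, beside 51.2% and 1.69% of all transcripts, with a median of 0.19, 0.15 against the 3 non-TG libraries, 0.21 within set A and 0.15 within set B. Without GS B the median was 0.06, and without non-TG A, against the other 2, 0.06. Mbp, myelin basic protein, had a change of 0.20, Mog, a surface protein of myelin, 0.20, Mobp 0.30 and Opalin 0.33 (0.15 against the 3 non-TG libraries). Their libraries overlapped, and without GS B Mbp was at 0.09, Mog at 0.00, Mobp at 0.15 and Opalin at 0.14. The summed level was 75266, 92565 and 90852 in non-TG A, B and C and 89545 and 97753 in GS A and B. Libraries of 3 members, Trf, Gpr37 and Tspan2, lay above all controls, beside 7.86% of all transcripts. Oligodendrocyte precursor genes had a median of 0.07 over 7. Myrf was not analysed here.

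Astrocyte genes had smaller but more even differences. All 26 listed genes were measured, 24 lay above 0 and none passed 0.3, with a median of 0.10, 0.14 against the 3 non-TG libraries, and 0.14 and 0.17 within sets A and B. Leaving out any single library kept the median between 0.10 and 0.20. For 10 of the 26 both GS LRRK2 TG libraries lay above all 3 non-TG libraries, beside 7.86% of all transcripts, and for none below. Glul, glutamine synthetase and the member with the most reads, had 18080.3, 20324 and 20682 in non-TG A, B and C and 21599.5 and 20931 in GS A and B, a change of 0.09. Gfap, the filament protein of astrocytes, had 792, 839.8 and 824 in non-TG A, B and C and 895 and 1069 in GS A and B, a change of 0.16 (0.03 without GS B). Clu, the chaperone clusterin, had 9911, 10986 and 8812 in non-TG A, B and C and 11761 and 11918 in GS A and B, a change of 0.18. In each of the 3 genes both GS LRRK2 TG libraries were above the controls by little. Aqp4, the water channel of astrocyte end feet, had 0.15, and Slc1a2, the main glutamate transporter, 0.08 (-0.07 without GS A) with overlapping libraries. The summed level was 117354, 122072 and 105510 in the controls and 131702 and 126842 in GS A and B.

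Il33, a cytokine that glia of the brain hold in their nuclei, had 838, 473 and 790 in non-TG A, B and C and 1174 and 919 in GS A and B. Both GS LRRK2 TG libraries were above all controls, and its change was 0.65, with 0.49 and 0.54 within the sets and 0.36 against non-TG A and C, that is without non-TG B. Apod, apolipoprotein D of glia, had 2594, 2281 and 2474 in non-TG A, B and C and 3687 and 2841 in GS A and B, a change of 0.37. Lpl, lipoprotein lipase, had 1307, 1186 and 977 in non-TG A, B and C and 1535 and 1482 in GS A and B, a change of 0.32. Mt2, a metallothionein, had 2163, 2046 and 2188 in non-TG A, B and C and 2556 and 2704 in GS A and B, a change of 0.33. The libraries of these 4 genes did not overlap between the groups, and Apod stood at 0.17 without GS A. In GS/DA LRRK2 TG, Il33 had 812 and 418, and Apod 2723 and 2559.

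Of 13 measured microglia genes 12 lay above 0 and 1 passed 0.3, beside 51.2% and 1.69% of all transcripts, with a median of 0.15. The median was -0.11 without GS A, 0.30 without GS B, 0.07 against non-TG A and C, and 0.03 within set B. Cx3cr1, the fractalkine receptor, had 334, 321 and 320.3 in non-TG A, B and C and 365 and 365 in GS A and B, without overlap. Fcrls was the member past 0.3 (0.43), with overlapping libraries. Aif1, P2ry12, Tyrobp and Cd68 were not analysed here. The summed level was 6905, 5119 and 5528 in the controls and 7874 and 5245 in GS A and B.

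Among 8 measured genes of gliosis and interferon signalling 7 lay above 0 (median 0.14, and 0.24 against the 3 non-TG libraries), none past 0.3. B2m, the light chain of class I antigens, had 526, 386 and 423 in non-TG A, B and C and 631 and 533 in GS A and B, a change of 0.29 (0.16 without GS A). It lay above all controls in both GS LRRK2 TG libraries, as did the class I heavy chains H2-D1 (0.13) and H2-K1 (0.18, and 0.07 without GS B), whose reads may be shared between copies. Without GS B the median was 0.07. The part of glial cell number in these values was not tested.

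Markers of neighbouring tissue differed between single libraries. Of 22 symbols for cortical excitatory neurons 10 were measured, with a median of -0.18 that was 0.32 against the 3 non-TG libraries, 0.48 within set A and -0.53 within set B. Without GS A it was -1.36 and without GS B 0.42. Slc17a7, the vesicular glutamate transporter of cortical neurons, had 787, 533 and 411 in non-TG A, B and C and 1425 and 258 in GS A and B, and 1996 and 1250.5 in GS/DA LRRK2 TG. GS A was above and GS B below all 3 controls, and both GS/DA LRRK2 TG libraries were high. Neurod6, with 174 in GS A and 30.4 in GS B, and Cck, with 706 and 165, also lay above all controls in GS A and below them in GS B. Rorb, Fezf2 and Camk2a were not analysed here. Summed levels were 9238, 8523 and 9856 in the controls and 11577 and 8596 in GS A and B, with Crym the member with most reads.

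Ttr, the transthyretin of choroid plexus, had 945, 13518 and 264 in non-TG A, B and C and 1037 and 408 in GS A and B. Non-TG B held most of these reads, the change was -2.45, and it was 0.26 against non-TG A and C and 0.14 within set A. Of 27 choroid plexus and ependymal symbols 4 were measured (median -0.26, 0.09 without non-TG B), with Enpp2 the member with most reads, and Kl, Kcnj13 and Folr1 were not analysed here. Their summed level was 4317, 20819 and 3512 in the controls and 5074 and 4059 in GS A and B. Gh, the pituitary growth hormone, was the lowest change of all, and its reads were 6251, 60.5 and 419.5 in non-TG A, B and C and 25.7 and 25.1 in GS A and B, so that non-TG A held nearly all of them. Its change of -5.75 was -3.26 within set B, which does not hold that library.

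The 3 measured globin genes had a median of -0.15, -0.82 within set A and 0.19 within set B, and their copies share reads. Hba-a2 had 7633, 7061 and 6658 in non-TG A, B and C and 4143 and 9040.1 in GS A and B, with GS A the lowest library and GS B the highest. The summed globin level was 19954, 14958 and 14069 in the controls and 11145 and 17771 in GS A and B. The 3 of 20 meningeal and fibroblast genes that were measured had a median of -0.23 (Col1a1, Col1a2 and Dcn were not analysed here), and Col6a1, a collagen chain, was past -0.3 (-0.40) while Ptgds, prostaglandin D synthase, was at 0.27. Without GS A these were at -0.16 and 0.12. Endothelial and pericyte genes (7 of 24 measured) had a median of 0.00, with Bsg the member with most reads, and Cldn5, Flt1 and Pecam1 were not analysed here. The part of tissue makeup in the changes above was not tested.

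Of 13 measured interneuron genes 7 lay above 0 (median 0.03). Pvalb, the parvalbumin of fast-spiking interneurons, was the member past 0.3 (0.43), at 821, 411 and 580.3 in non-TG A, B and C and 1099 and 386 in GS A and B. GS A was above all controls and GS B below them all, and the change was -0.51 without GS A. Sst, somatostatin, had -0.06.

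Single genes past 0.3 with both means of at least 500 were led by Lrrk2 and then by Alcam, a cell adhesion molecule of the immunoglobulin family. Alcam had 4502, 5002 and 4273 in non-TG A, B and C and 4213 and 12563 in GS A and B. GS B alone was high, and the change of 0.93 was -0.07 without it. Srsf5, a splicing factor whose own mRNA is alternatively spliced, had 1876, 2089 and 1693 in non-TG A, B and C and 3389 and 2052 in GS A and B, with GS A alone high and GS B within the controls, and its change of 0.58 was 0.17 without GS A. Tmsb4x, an actin-binding thymosin, had 11649, 5830.1 and 5724 in non-TG A, B and C and 13199.8 and 7045 in GS A and B and a change of 0.38, which was -0.15 without GS A. Its reads were high in all 3 libraries of set A, and it was 0.18 and 0.29 within the sets. Rasl11b (0.45), Cetn3, a centrin (0.42), Endod1 (0.40) and BC031353 (0.36) were also highest in GS A, and without it they stood at -0.42, -0.23, 0.05 and -0.31. Gm5803 (0.47) and Tuba3a, an alpha tubulin (0.40), have no single values for the non-TG and GS LRRK2 TG libraries and share reads with copies. Against the rescaled control mean of the other transgenic table they were at 0.11 and 0.17.

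On the lower side, Alad, the aminolevulinate dehydratase of heme synthesis, had 1106, 1160.5 and 561 in non-TG A, B and C and 622 and 488 in GS A and B, and a change of -0.84. Non-TG C was as low as the GS LRRK2 TG libraries, and non-TG A and B were about as high as both GS/DA LRRK2 TG libraries at 1009 and 1139. Hdhd3, next to it on chromosome 4 (62160042 to 62164501, beside 62170203 to 62180952 for Alad), followed the same pattern with 279, 323 and 131 in non-TG A, B and C and 154 and 107 in GS A and B and a change of -0.99. Without non-TG C the change of Alad against non-TG A and B was -1.03. Gm1337 had 1682, 2075 and 2155 in non-TG A, B and C and 1211 and 1414 in GS A and B, a change of -0.53 with libraries below all controls, and it was among the 3 calls with the library set as a term (-0.53, SE 0.0759, adjusted p = 0.0416).

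Pou3f1, a POU transcription factor, had 1059.8, 1452 and 1379 in non-TG A, B and C and 828 and 920 in GS A and B, a change of -0.44. Klf16, a Krüppel-like factor, had 1176, 1435 and 1596 in non-TG A, B and C and 937 and 1084 in GS A and B, a change of -0.40. Rhobtb2, an atypical GTPase, had 989.7, 1111 and 1193 in non-TG A, B and C and 704 and 851 in GS A and B, a change of -0.37 (-0.24 without GS A). All 3 were below every control library. Med23, a Mediator subunit, had 626, 1927 and 2066 in non-TG A, B and C and 509 and 1603 in GS A and B, and D4Wsu53e 3586, 4545 and 3982 in non-TG A, B and C and 1422 and 3761 in GS A and B. Med23 differed more between the library sets than between the genotypes, and D4Wsu53e was low in GS A alone of these 5. Their changes of -0.39 and -0.36 were 0.22 and 0.18 without GS A.

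Ddit4l, a relative of the mTOR inhibitor REDD1, had 290.3, 358 and 439.6 in non-TG A, B and C and 141 and 171 in GS A and B, and 163 and 119 in GS/DA LRRK2 TG. All transgenic libraries were below all non-TG libraries, its change was -0.82 (-1.22 against the 3 non-TG libraries), and limma with the library set as a term gave -1.10 (SE 0.127, adjusted p = 0.00727). Zbtb16, a zinc finger transcription factor, had 91.5, 60.5 and 85.4 in non-TG A, B and C and 453 and 106 in GS A and B and 444 and 141 in GS/DA LRRK2 TG. All transgenic libraries were above all non-TG libraries, most so in set A. Its change was 0.76 against the deposited mean, which holds the GS/DA LRRK2 TG libraries, and -0.64 without GS A. It was 1.82 against the 3 non-TG libraries, 2.31 within set A and 0.54 within set B. Exosc6, an exosome subunit, had 179, 238 and 211 in non-TG A, B and C and 87.8 and 124 in GS A and B, a change of -0.87, with an adjusted p of 0.0575 in that fit.

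Among 125 transcripts with both means of at least 10000 the changes were small. Ckb, brain creatine kinase, had 63369, 69557 and 81099 in non-TG A, B and C and 56122 and 57647 in GS A and B and the lowest change, -0.24, below every control library. Ngef, a guanine nucleotide exchange factor, was at -0.20, Ncdn, neurochondrin, at -0.19, Eno2, neuronal enolase, at -0.17, and Eef2, elongation factor 2, at -0.17. Ncdn and Ngef lay below all controls, and Eno2 and Eef2 overlapped with them. Clu (0.18), Cst3, cystatin C (0.16), Cfl1, cofilin (0.14), and Phactr1, a phosphatase and actin regulator (0.14), were among the highest. Without GS A Ngef was at -0.07, Eef2 at -0.04 and Cst3 at 0.06, and without GS B Eno2 was at -0.06 and Phactr1 at 0.02. Cfl1 had 23064, 21142 and 21135 in non-TG A, B and C and 24495 and 24104 in GS A and B, both GS LRRK2 TG libraries above the controls.

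Of 27 measured genes in the list of LRRK2 and its partners and substrates 1, Lrrk2 itself, was past 0.3, and the median was 0.05. Rab3b, a Rab GTPase of synaptic vesicles, came closest at 0.30, with 1713, 1945 and 1988 in non-TG A, B and C and 2367 and 2538 in GS A and B. It was above all controls, by 0.47 and 0.37 within the sets, and by 0.38 against the 3 non-TG libraries. Rab10 (0.09), Rab8a (0.00), Rab12 (0.09) and Rab35 (0.00), all known LRRK2 substrates, had overlapping libraries, and Ywhaz, a 14-3-3 protein with the most reads of the list, was at 0.00. Of 39 Rab GTPases 29 lay above 0 (median 0.06) and none passed 0.3.

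The list of Parkinson disease genes leaves out Lrrk2, and none of its 20 measured members passed 0.3 (median 0.03, and -0.09 without GS A). Vps35, a retromer subunit, was at 0.06, and Uchl1, a ubiquitin hydrolase with the most reads of the list, at 0.07. The change of Uchl1 was 0.00 without GS A and 0.13 without GS B. Of 30 lysosomal genes 23 lay above 0 (median 0.07, 0.13 against the 3 non-TG libraries and -0.02 without GS A), and libraries of 8 lay above all controls and 1 below, beside 7.86% and 7.55% of all transcripts. Lamp1, a lysosomal membrane protein, had 3357, 3207 and 2950.4 in non-TG A, B and C and 3843 and 3559.7 in GS A and B, a change of 0.17 without overlap, while Ctsd, the protease cathepsin D, was at -0.01. Vacuolar ATPase subunits, which acidify these organelles, had a median of 0.02, which was -0.15 without GS A and 0.19 without GS B.

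Genes of GABA-A receptors, the main inhibitory receptors on spiny neurons, lay above 0 in 10 of 11 cases (median 0.14), none past 0.3. The median was 0.01 without GS A. Gabra2 had 1490.4, 1813 and 1766 in non-TG A, B and C and 1875 and 1892 in GS A and B, a change of 0.20 without overlap. Ionotropic glutamate receptor subunits had a median of 0.02 over 9, and Grin1, the obligatory NMDA receptor subunit, was at -0.06. Without GS A this median and Grin1 were at 0.07 and 0.06, and without GS B at -0.10 and -0.18. Postsynaptic scaffolds lay below 0 in 15 of 19 cases (median -0.06, -0.01 without GS A and -0.19 without GS B), and Dlgap3, a scaffold prominent in striatum, was past -0.3 (-0.32) at 1022, 1428 and 1570 in non-TG A, B and C and 851 and 1161 in GS A and B. Its libraries overlapped, and without GS A it was at -0.11. Synaptic vesicle genes had a median of -0.03 over 38, and Vamp1, a vesicle SNARE, passed 0.3 (0.35, and -0.17 without GS A), with 437, 327 and 426 in non-TG A, B and C and 631 and 339.7 in GS A and B, high in GS A alone.

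Voltage-gated calcium channel subunits had a median of -0.02 over 14, with Cacnb1, a beta subunit, lowest at -0.30 and Cacna2d3, with the most reads, at -0.04, and these were -0.10 and 0.22 without GS A. The median was 0.07 without GS A and -0.21 without GS B. Calcium pumps and store channels were at -0.01 over 23, where Calb2, the calcium buffer calretinin, passed 0.3 (0.35, and -0.11 without GS A). Potassium channel subunits were at -0.01 over 38, sodium channel subunits at -0.01 over 6, and sodium-potassium ATPase subunits at 0.07 over 6. Regulators of G protein signalling lay at -0.05 over 13, and at -0.12 against the 3 non-TG libraries. Without GS A their median was 0.02 and without GS B -0.11. Libraries of 4 of the 13 lay below all controls and of none above, beside 7.55% and 7.86% of all transcripts. Heterotrimeric G proteins lay at 0.03 over 22. Gnb5, which pairs with regulators of G protein signalling, passed -0.3 (-0.31, and -0.15 without GS A). It had 7271, 6924 and 8203 in non-TG A, B and C and 5100 and 6377 in GS A and B, below all controls. Phosphodiesterases, protein kinase A subunits and CaM kinases had medians of 0.06, 0.07 and -0.04.

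The translation machinery had medians near 0 against the deposited control mean. Small ribosomal subunit proteins had a median of -0.03 over 33 and large ones -0.02 over 41, and against the 3 non-TG libraries these were -0.10 and -0.08. Libraries of 9 of the 33 lay below all controls and of none above, and of 5 of the 41 below and none above, beside 7.55% below and 7.86% above over all transcripts. A transcript of Rps4x was the single member past 0.3 (0.38), with overlapping libraries and 0.01 without GS B. The symbol has a second transcript with more reads at -0.01, and which reads belong to which copy is uncertain. Initiation factors were at 0.01 over 41, elongation and termination factors at -0.01 over 13, aminoacyl-tRNA synthetases at -0.03 over 27, and translational regulators of neurons at -0.05 over 24. Genes of the integrated stress response, the program started by eIF2 phosphorylation, had a median of -0.03 over 17, none past 0.3, and its transcription factor Atf4 was at -0.25 (0.04 without GS A) with 139.7, 265 and 209.8 in non-TG A, B and C and 124 and 193 in GS A and B.

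Cytosolic heat shock genes lay below 0 in 15 of 19 cases, with a median of -0.08. The median was -0.03 without GS A, -0.17 without GS B, -0.16 within set A and -0.01 within set B. Of the 19 genes 3 passed -0.3, beside 1.69% of all transcripts. These were Dnajb5 (-0.32, and 0.20 without GS A) and the inducible Hsp70 genes Hspa1a (-0.61) and Hspa1b (-0.60), which lie side by side on chromosome 17 and share reads, so their single values are uncertain and they are not independent members. Hspa1a had 377, 384 and 436 in non-TG A, B and C and 235 and 300.1 in GS A and B, below all controls, and 557 and 283 in GS/DA LRRK2 TG. Hspa8, the constitutive Hsp70 with the most reads of the list, was at -0.11 (0.01 without GS A). Endoplasmic reticulum chaperones had a median of -0.02 over 19, with Hspa5 (BiP) at -0.16 and Sdf2l1 past -0.3 (-0.43), and these were 0.02 and -0.17 without GS A.

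**Figure D3:**
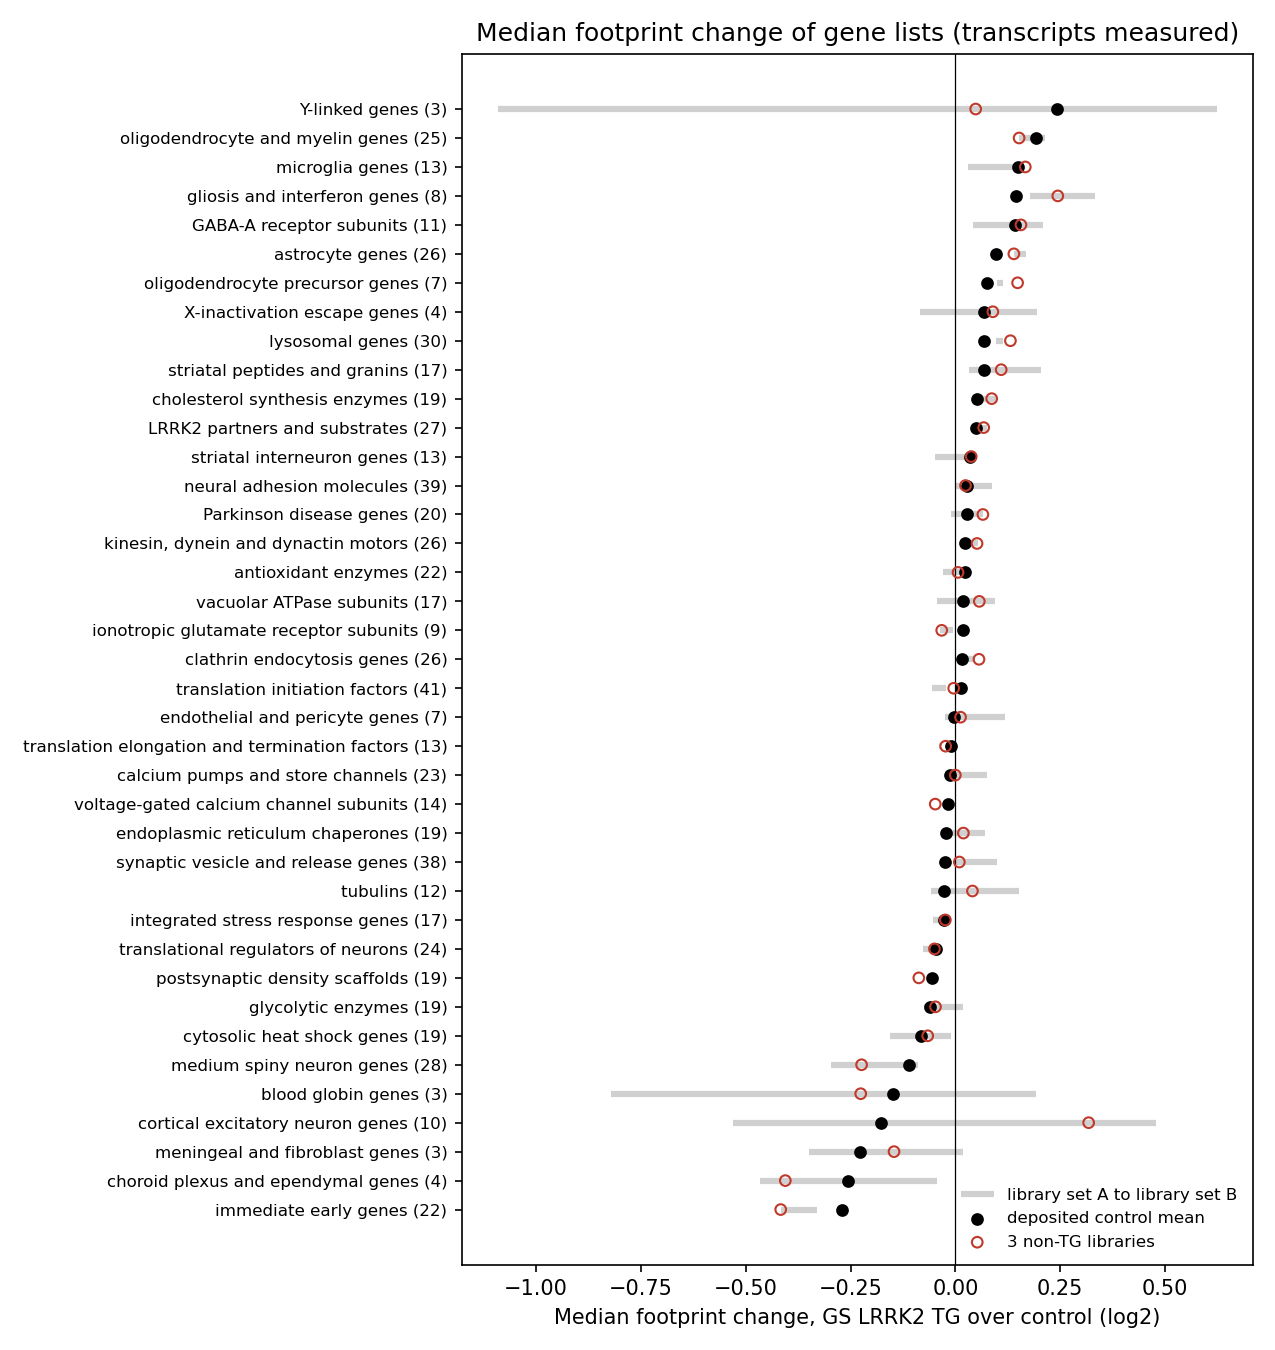
Median footprint change (log2, horizontal axis) of 39 gene lists with the number of measured transcripts in brackets: black points are against the deposited control mean, open red circles against the 3 non-TG libraries, and grey bars run between the medians within library sets A and B. Immediate early genes lie lowest at -0.27 and oligodendrocyte genes at 0.19, while cortical excitatory neuron genes lie on opposite sides of 0 in the library sets.

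Metabolic and structural genes had small medians. Transcripts of glycolytic enzymes lay below 0 in 16 of 19 cases (median -0.06), and Gapdh copies share reads. Complex I subunits, complex II to IV subunits and ATP synthase subunits had medians of 0.00, 0.00 and 0.00, mitochondrial ribosomal proteins 0.00 over 63, and proteasome subunits -0.02 over 30. The complex I median was -0.14 without GS A, 0.10 without GS B and -0.11 within set B, and that of ATP synthase -0.14 and 0.07 without each. Cholesterol synthesis enzymes were at 0.05, antioxidant enzymes at 0.02, tubulins at -0.03, motor proteins at 0.02 and clathrin endocytosis genes at 0.02. Neural adhesion molecules had a median of 0.03 over 39, with libraries of 7 above all controls and none below, beside 7.86% and 7.55% of all transcripts. Of 69 lists and families with at least 3 measured members, 57 had a median within 0.1 of 0 and 39 within 0.05, 5 were at 0.1 or more and 7 at -0.1 or less. Without GS A or without GS B, 39 of these 69 medians were on the other side of 0 (22 without GS A and 19 without GS B). Over all transcripts 4394 lay above 0 and 4182 below (51.2% above).

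The control mean is a term of the change, and most transcripts past 0.3 had a low one. Of the 145 higher ones 85.5% had a control mean under 500, and of the 145 lower ones 63.4%, beside 45.4% of all transcripts. Base composition and length did not enter the choice. The GC content of the coding sequence, by matching symbols to the mouse annotation of the same build, had a median of 52.82% over all, 51.2% in the higher and 60.29% in the lower transcripts. Across 8329 transcripts the change correlated with GC at a Spearman correlation of -0.377, where all points share the libraries and transcripts are not independent replicates. The coefficient was -0.332 against the 3 non-TG libraries, -0.116 within set A and -0.234 within set B. Ratios of libraries within a genotype correlated with GC too, with a sign that follows which library is the numerator. With set A over set B, the ratio of non-TG A to non-TG B had -0.433 and that of GS A to GS B -0.305. Inside set B, the ratio of non-TG C to non-TG B had 0.167. The part of base composition in the changes was not tested. Median coding length was 1467 bases over all, 1411.5 in the higher and 1281 in the lower transcripts.

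By chromosome, the median change lay between -0.02 and 0.03 on chromosomes 1 to 19 and X. Among genes next to each other on a chromosome, 3 pairs were both higher and 6 both lower past 0.3, among them Hdhd3 with Alad, Hspa1b with Hspa1a, and Grasp with Nr4a1 on chromosome 15. The 3 measured Y-linked genes had a median of 0.24, -1.09 within set A and 0.62 within set B, in pools of mixed sex. Without GS A it was 0.87 and without GS B -0.89. Their summed level was 1102, 981 and 1480 in the controls and 533 and 1713 in GS A and B, lowest of these 5 in GS A.

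The other tables give the same genes for other genotypes. They were normalized separately, and the GS/DA LRRK2 TG table shares control libraries with the comparison above, so values stand side by side. In the GS/DA LRRK2 TG table, Lrrk2 was at 2.17 on the log2 scale, Nr4a1 at -0.97, Egr4 at -0.77, Egr1 at -0.70, Drd1a at -0.50 and Penk at -0.53. Il33 was at -0.09, Apod at 0.11, Alad at -0.08 and Gm1337 at -0.08 there. Of the glial lists, the medians there were 0.10 for astrocyte genes and 0.24 for gliosis and interferon genes. They were 0.08 for microglia genes and -0.0008 for oligodendrocyte and myelin genes. In LRRK2 knockout striatum, with its own wild-type controls, Lrrk2 was at -2.12, Nr4a1 at 0.06, Egr4 at 0.09, Egr1 at 0.34, Drd1a at 0.28, Il33 at 0.37 and Apod at 0.45. Whether the genotypes differ in these genes was not tested.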

How the data were processed

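Ribosome footprints of striatum were measured in 2 samples of GS LRRK2 TG, 3 of non-TG control and 2 of GS/DA LRRK2 TG. The authors called bases with CASAVA 1.8, mapped reads to mm9 with TopHat2 2.0.11 and Bowtie2 2.2.2 with at most 1 mismatch, counted reads in coding sequence over the union of isoforms with HTSeq or GenomicAlignments, and divided them by DESeq 1.20 size factors. The values used are signal as deposited: the mean over a group of reads divided by size factors, with each table normalized separately. The deposited RNA-Seq means have the same unit, signal, and were not used here. The 5'UTR folding energy, a score the authors took from a genome browser table, was not used here either. Nor were the authors' columns of translation efficiency (footprint over RNA level), its difference between groups and the z-score of that difference.

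The footprint change is the log2 ratio of both deposited means with no pseudocount, over all transcripts, and 0.3 was the limit for counts, with 0.2, 0.5 and 1 as further limits. Libraries were recovered by a search for whole reads and size factors that give the deposited means within rounding, which was tested on simulated data. The search for a library step did not succeed on every simulated set. limma 3.58.1 with trend in R 4.3.3 was fitted to log2(normalized reads + 10), with Benjamini-Hochberg adjustment over 8567 transcripts. Other values used Python 3.11.15 with numpy 2.4.6, pandas 2.3.3, scipy 1.17.1 and matplotlib 3.10.9. Positions, coding lengths and GC come from an annotation of the same build, matched by symbol (97.1% of transcripts had a coding length). Whole reads set the precision: 7387688 to 21240069 reads per library lay on these transcripts.

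Named genes were Lrrk2; the 15 highest and 15 lowest changes with both means at least 500; the 5 highest and 5 lowest with both at least 10000; and in each gene list or family its members past 0.3 (up to 6 each way) or else its 2 most abundant. Some genes that these rules choose are not reported here. Members and lists were chosen with earlier results of these data known, and lists were described by counts and medians, with no test. Alternatives were a pseudocount of 10, minimum means of 250 and 500, centring, 1 transcript per symbol, the rescaled control mean of the GS/DA LRRK2 TG table, each library left out, and for limma pseudocounts of 1 and 50. The 3 non-TG libraries alone, the library sets and the set as a term were added after seeing the data. A count test was not run on the recovered reads.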

Additional observations from a re-analysis of the deposited data

How the results depend on the processing

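No paired analysis was possible because the deposited columns carry no replicate numbers, where pairs would come from the column labels alone. The paper lists mapped reads for each numbered sample, but matching recovered libraries to samples by read depth was not tried. The limma fit with the library set as a term is blocked by set, not by replicate number. The library sets cross the genotypes but were found from the values, and no label names them as pairs. With a pseudocount of 10, centring on the median, or 1 transcript per gene symbol, each of the 69 list medians and 40 gene changes, wherever they had a value, moved by less than the spread between libraries. Over all 14 alternatives 39 of the 69 medians and 10 of the 40 genes did so. Medians of lists left with fewer than 3 members by a filter have no value, nor do Gm5803 and Tuba3a wherever single libraries are needed. Alternatives with the 3 non-TG libraries alone, with the library sets and with the set as a term in limma were chosen after seeing the data. Where limma leaves out a GS LRRK2 TG library, the lone one is assumed to vary like the controls. With the library set as a term, leaving out non-TG A does the same, since GS A is then alone in its set. Causes of the differences below were not tested, other than that the filters leave fewer transcripts.

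With both means at least 250, 64 transcripts were higher and 81 lower past 0.3, and gliosis and interferon genes had a median of 0.067. With both means at least 500 there were 21 and 41, and Parkinson disease genes were at -0.039. Against the rescaled control mean of the GS/DA LRRK2 TG table there were 258 and 218, with X-inactivation escape genes at -0.015, synaptic vesicle genes at 0.033, antioxidant enzymes at 0.0091 and gliosis genes at 0.26. Against the 3 non-TG libraries there were 271 and 293, with synaptic vesicle genes at 0.0095, antioxidant enzymes at 0.0064, lysosomal genes at 0.13, gliosis genes at 0.24 and collagens at -0.15. The SD within library set A was 0.238. There 535 transcripts were higher and 638 lower, and medians were -0.30 for medium spiny neuron genes, -0.82 for globins, -1.09 for Y-linked and 0.19 for X-inactivation escape genes. They were 0.076 for calcium pumps, 0.0999 for synaptic vesicle genes, 0.15 for tubulins, 0.11 for lysosomal genes, -0.13 and -0.12 for small and large ribosomal proteins, -0.076 for Zfp genes, 0.052 for potassium channels, 0.081 for solute carriers and -0.35 for collagens. Alcam was at -0.096 and Ttr at 0.14 there. Within library set B 282 were higher and 358 lower, and medians were 0.12 for endothelial genes, -0.083 for X-inactivation escape genes, -0.056 for initiation factors and -0.031 for antioxidant enzymes. They were 0.096 for lysosomal genes, 0.20 for peptides, 0.33 for gliosis genes, -0.074 for ATP synthase subunits and -0.003 for collagens, while BC031353 was at -0.025, Pvalb at -0.36 and Rasl11b at -0.12. The library set as a term in limma gave 3 calls.

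Leaving out 1 library at a time, with the deposited control mean or with the 3 non-TG libraries, gave these lowest and highest values. Counts past 0.3 ran from 230 to 778 higher and from 223 to 949 lower, the SD from 0.177 to 0.284, and limma calls from 0 to 35. Of cell type lists, medium spiny neuron genes ran from -0.34 to 0.076, cortical from -1.36 to 0.47, microglia from -0.11 to 0.30, endothelial from -0.031 to 0.14, Y-linked from -0.89 to 0.87, X-inactivation escape from -0.13 to 0.29 and gliosis genes from 0.071 to 0.29. Of signalling and synaptic lists, Parkinson disease genes ran from -0.093 to 0.12, calcium pumps from -0.071 to 0.088, GABA-A subunits from 0.011 to 0.18, postsynaptic scaffolds from -0.19 to -0.013 and synaptic vesicle genes from -0.051 to 0.033. Adhesion molecules ran from 0.004 to 0.11, potassium channels from -0.061 to 0.064, protocadherins from -0.033 to 0.12 and G proteins from -0.066 to 0.023. Of the other lists, endoplasmic reticulum chaperones ran from -0.14 to 0.069, antioxidant enzymes from -0.0073 to 0.023, lysosomal genes from -0.021 to 0.15, small ribosomal proteins from -0.13 to -0.068, ATP synthase subunits from -0.145 to 0.075, hnRNPs from -0.13 to -0.035, Zfp genes from -0.073 to 0.043, solute carriers from -0.015 to 0.0697 and collagens from -0.38 to -0.12. Of single genes, Alcam ran from -0.068 to 1.51, BC031353 from -0.31 to 0.81, Cetn3 from -0.23 to 0.86, D4Wsu53e from -1.23 to 0.18, Egr4 from -1.41 to 0.033 and Med23 from -1.44 to 0.22. Nr4a3 ran from -2.87 to 0.46, Pvalb from -0.51 to 1.00, Rasl11b from -0.42 to 0.99, Tmsb4x from -0.15 to 0.81 and Ttr from -3.32 to 0.26.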

Other observations

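Further genes were past 0.3 within both library sets and were chosen after their values were seen. Id2 and Id4 are inhibitors of basic helix-loop-helix transcription factors, and they lay on opposite sides of the controls. Id2 had 1501, 1432 and 1503 in non-TG A, B and C and 1952 and 1855 in GS A and B, above all controls, with a change of 0.30. Id4 had 2368, 2647 and 2682 in non-TG A, B and C and 1629 and 2067 in GS A and B, below all controls, with a change of -0.33 (-0.17 without GS A). Per1, a repressor of the circadian clock, had 1733, 2258 and 2321 in non-TG A, B and C and 1277 and 1824 in GS A and B, a change of -0.25 (-0.02 without GS A) with GS B among the controls. Ercc2, a helicase of nucleotide excision repair, had 200, 101 and 271 in non-TG A, B and C and 327 and 264 in GS A and B, a change of 0.42 (0.25 without GS A), with GS A above all controls and GS B just under non-TG C. Vps41, a subunit of the HOPS tethering complex of lysosomes, had 1837, 1924 and 1301 in non-TG A, B and C and 2287 and 2042 in GS A and B, a change of 0.26. Both of its GS LRRK2 TG libraries were above the controls. Utrn, a relative of dystrophin, had 1046, 1353 and 1341 in non-TG A, B and C and 807 and 1028 in GS A and B, a change of -0.33 (-0.17 without GS A), with both GS LRRK2 TG libraries below the controls.

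Semaphorins and plexins, guidance ligands and their receptors, had a median of 0.03 over 20 and 0.10 against the 3 non-TG libraries, and without GS B the former was -0.08. Libraries of 7 lay above all controls and of none below, beside 7.86% and 7.55% of all transcripts. Plxnb3 and Sema3a were past 0.3, at 0.31 and 0.32, and Plxnb3 had 202, 220.4 and 242 in non-TG A, B and C and 303 and 254 in GS A and B. Without GS A Plxnb3 was at 0.17, and Sema3a, with overlapping libraries, was at 0.21 against the 3 non-TG libraries and 0.11 within set A. Cntn3, an adhesion molecule of the contactin family, was at 0.44, with 161, 191 and 179.6 in non-TG A, B and C and 271 and 177 in GS A and B, high in GS A alone and at 0.10 without it. Of 19 measured genes of cholesterol synthesis, libraries of 4 (Dhcr7, Fdft1, Sc5d and Sqle) lay above all controls and of none below, beside 7.86% and 7.55% of all transcripts. Srebf2, which drives transcription of that pathway, was at -0.09 (0.12 without GS A). Of 63 mitochondrial ribosomal proteins 2 passed 0.3 (beside 1.69% of all transcripts), Mrpl55 at 0.39 and Mrpl47 at 0.32. Mrpl55, with overlapping libraries, was at 0.17 against the 3 non-TG libraries and -0.09 within set A, and Mrpl47 was at 0.21 without GS A. In this family libraries of 1 member lay above and of 7 below all controls, beside 7.86% and 7.55% of all transcripts. Tripartite motif proteins, many of them ubiquitin ligases, lay below 0 in 15 of 21 cases (median -0.09).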
